A study of Mus musculus with 4 samples.

Results

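The BPI fold and lipocalin genes considered here encode mainly secreted proteins of mucosal surfaces and glands, and their array signals were compared between FoxO6-/- and WT mice in mandible and maxilla (here called jaw) and in brain. The list holds 8 genes, Bpifb9b, Bpifb5, Bpifb3, Bpifb4, Bpifb6, Bpifa1, Lcn11 and 5430401F13Rik, and its members are all probe sets annotated to one of these symbols alone. Whether 5430401F13Rik, which lies on chromosome 6, belongs to either family was not examined. Probe sets were found for 6 of the 8 genes, 7 probe sets in all of the 45101 on the array, with a pair of them for Bpifb9b and 1 for each other gene. Bpifb4 and Bpifb6 had no probe set under their own name and were not analysed here. The members were chosen by their signals on these same 4 arrays, the values described below, so the differences between genotypes given below are a description and carry no test.

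The groups were FoxO6-/- jaw, WT jaw, FoxO6-/- brain and WT brain, with 1 Affymetrix mouse array each and 4 in all. In the FoxO6-/- mice the coding region of FoxO6, a forkhead transcription factor gene, was replaced by a LacZ and neomycin resistance cassette, and the mice were kept on a C57BL/6 background. All arrays carry the age label postnatal day 0, whereas the methods describe embryos for the jaw RNA. For jaw, the methods describe pools of RNA from 4 animals, and their mutant pool could hold both null and heterozygous animals. Brain and jaw were cut apart manually from dissected heads. With 1 array per group there are no replicates, so no difference has an error or a p-value, and the number of arrays limits the precision.

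Proteins with the BPI fold share the boat-like, lipid-binding shape of the bactericidal/permeability-increasing protein, and most are secreted into the fluid that covers nasal, oral and airway epithelium. The short form, as in Bpifa1, holds a single BPI domain, and the long BPIFB forms hold a pair. Lipocalins are small barrel-shaped proteins that carry hydrophobic ligands such as odorants, retinoids and steroids, and several are products of nasal glands. Both families lie in clusters of neighbouring genes.

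The sequences just upstream of the start sites are shown because the 3 members with the same signal pattern, Bpifb9b, Bpifb5 and 5430401F13Rik, can then be set beside Bpifa1 and beside Bpifb9a, the closest neighbour of Bpifb9b. They are from RefSeq, build GRCm38.p6, all on the plus strand, 250 bases each up to the annotated start, with capitals marking the letters TATAAA. The windows are chr2:154306994-154307243 for Bpifb9b, chr2:154257629-154257878 for Bpifb9a, chr2:154223492-154223741 for Bpifb5, chr6:131543512-131543761 for 5430401F13Rik and chr2:154142630-154142879 for Bpifa1.
Bpifb9b: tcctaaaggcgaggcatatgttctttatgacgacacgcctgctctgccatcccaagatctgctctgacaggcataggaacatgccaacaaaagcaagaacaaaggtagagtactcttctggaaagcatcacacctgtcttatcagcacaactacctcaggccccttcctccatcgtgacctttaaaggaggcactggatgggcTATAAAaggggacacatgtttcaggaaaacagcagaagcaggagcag
Bpifb9a: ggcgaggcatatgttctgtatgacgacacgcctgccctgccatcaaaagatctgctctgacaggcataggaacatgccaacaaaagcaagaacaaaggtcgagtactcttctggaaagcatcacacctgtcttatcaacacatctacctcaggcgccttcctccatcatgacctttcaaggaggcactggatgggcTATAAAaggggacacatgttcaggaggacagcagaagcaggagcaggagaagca
Bpifb5: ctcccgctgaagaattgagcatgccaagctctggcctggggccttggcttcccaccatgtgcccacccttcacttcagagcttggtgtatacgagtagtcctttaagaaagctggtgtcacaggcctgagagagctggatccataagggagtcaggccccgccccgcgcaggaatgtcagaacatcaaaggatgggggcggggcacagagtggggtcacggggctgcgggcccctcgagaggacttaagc
5430401F13Rik: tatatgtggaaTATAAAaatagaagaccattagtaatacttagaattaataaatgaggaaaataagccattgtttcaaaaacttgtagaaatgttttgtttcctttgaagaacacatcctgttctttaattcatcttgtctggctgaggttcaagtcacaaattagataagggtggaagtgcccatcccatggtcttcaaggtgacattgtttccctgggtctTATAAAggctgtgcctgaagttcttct
Bpifa1: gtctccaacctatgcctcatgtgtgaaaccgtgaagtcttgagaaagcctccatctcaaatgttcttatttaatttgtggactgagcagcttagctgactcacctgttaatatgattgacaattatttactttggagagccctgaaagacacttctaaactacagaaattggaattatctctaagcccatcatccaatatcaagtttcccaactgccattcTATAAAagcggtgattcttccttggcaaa
In a global alignment the upstream windows of Bpifb9b and Bpifb9a were identical at 230 of 258 aligned columns, 89.1%. The value was 51.6% for Bpifb9b and Bpifb5, 51.4% for 5430401F13Rik and Bpifa1 and 47.3% for Bpifb5 and 5430401F13Rik. All pairs but that of Bpifb9b and Bpifb9a ran from 43.3% (Bpifb4 and Bpifb6) to 52.7% (Lcn11 and Bpifb3). No likeness is read from values in that range. Bpifb9a had no probe set under its own name, so signal of the Bpifb9b probe sets could hold signal of Bpifb9a, and the assignment to Bpifb9b is uncertain to that extent. The motif TATAAA, searched on both strands, began 47 bases before the start in Bpifb9b, 54 in Bpifb9a, 27 and 239 in 5430401F13Rik and 29 in Bpifa1, and was not found in the Bpifb5 window. It was present in 12.4% of all 32851 windows of this length. The forkhead core GTAAACA, on either strand, was found in none of these 5 windows nor in that of Lcn11, and 3.17% of all windows held it.

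The signals are MAS5 values on a linear scale, and the trimmed mean of every array was 500.0. The floor used throughout is 101, the median of all signals, and a signal below it was treated as not measured above background. Such a signal gives only a bound, so the fold is then given as at least the bright signal over the floor. The ratio of 3' to 5' control signal was 3.37 for Actb on the FoxO6-/- jaw array, against 2.23 on the WT one, and 2.22 on the FoxO6-/- against 2.21 on the WT brain array. The summed signal of 7 enamel genes was 10617 in FoxO6-/- jaw and 7160 in WT jaw, against 238 in FoxO6-/- brain and 110.1 in WT brain. The sum over 12 nerve and brain genes was 77048 in FoxO6-/- brain and 61769 in WT brain, against 4473 in FoxO6-/- jaw and 6552 in WT jaw. The arrays labelled brain also carried markers of other head tissue. On them 15 cartilage genes summed to 65197 and 36482 in FoxO6-/- and WT, against 38190 and 60170 in FoxO6-/- and WT jaw. The sums of 11 genes of oral epithelium were 12356 and 8041 in FoxO6-/- and WT brain, against 83926 and 58667 in jaw. Those of 9 salivary gland genes were 14102 and 14283 in brain, against 1792 and 1458 in jaw. Dcpp3 alone gave 11273 and 10555 of the salivary sums in FoxO6-/- and WT brain. No probe set was named Foxo6 in the annotation, so the deleted gene gives no check of the genotypes.

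**Figure D1:**
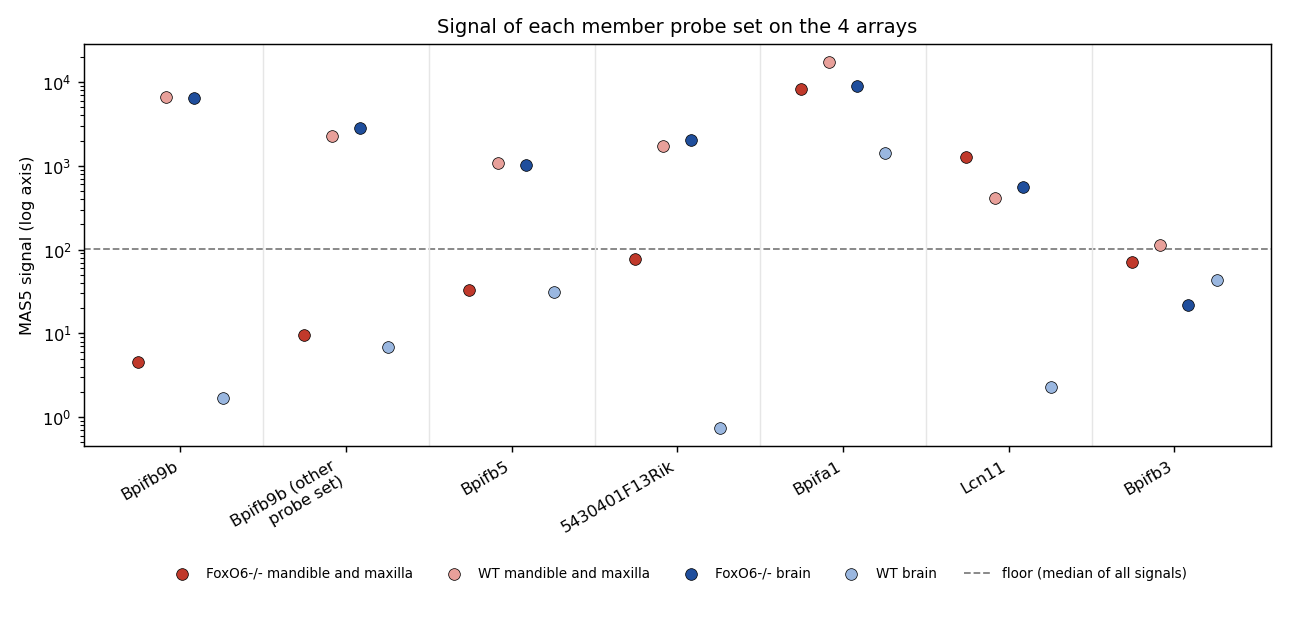
MAS5 signal (log axis) of each member probe set on the 4 arrays, 1 point per array, with the floor of 101 as a dashed line. Bpifb9b, Bpifb5 and 5430401F13Rik lie above the floor on the WT jaw and FoxO6-/- brain arrays and below it on the others.

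Bpifb9b, a long BPI fold gene, was bright on 1 array of each tissue and near background on the other. In jaw its brighter probe set reached only 4.62 in FoxO6-/-, against 6546 in WT. In brain it had 6462 in FoxO6-/- and 1.72 in WT. The FoxO6-/- signal was therefore at least 65.0-fold lower in jaw and at least 64.2-fold higher in brain. The measured log2 ratios of FoxO6-/- over WT were -10.47 and 11.88, but their size depends on signals far below the floor. The other Bpifb9b probe set had the same order, with 9.67 in FoxO6-/- and 2242 in WT jaw. It had 2797 in FoxO6-/- brain and 6.94 in WT brain. By this probe set FoxO6-/- was at least 22.3-fold lower in jaw and at least 27.8-fold higher in brain.

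Bpifb5, a long BPI fold gene parted from Bpifb9b by Bpifb9a, gave the same picture at its own probe set. Its signal was 33.4 in FoxO6-/- and 1067 in WT jaw, at least 10.6-fold lower in FoxO6-/-. In brain it was 1032 in FoxO6-/- and 31.0 in WT, at least 10.2-fold higher in FoxO6-/-. Both dim signals were below the floor, and the measured log2 ratios were -5.00 in jaw and 5.06 in brain.

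5430401F13Rik, a protein-coding gene on chromosome 6 with no role named here, is not a neighbour of the BPI fold genes, which lie on chromosome 2. Its signal was 78.1 in FoxO6-/- and 1711 in WT jaw, at least 17-fold lower in FoxO6-/-. In brain it was 2061 in FoxO6-/- and 0.747 in WT, at least 20.5-fold higher in FoxO6-/-. The measured log2 ratios were -4.45 and 11.43.

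The ratio of the bright signals, FoxO6-/- brain over WT jaw, was 0.987 for Bpifb9b (1.25 at its other probe set), 0.967 for Bpifb5 and 1.20 for 5430401F13Rik. Of all 11494 genes measured in both tissues, 70.3% were within 1.5-fold between these arrays, so such closeness was common. The signals on these bright arrays were above 84.4% or more of all probe sets of the same array. Of 18193 named genes, 37 (0.203%) reached the floor on the WT jaw and FoxO6-/- brain arrays and on no other, among them these 3 members. Among the 37, only Bpifb9b, Bpifb5 and 5430401F13Rik had a signal of 1000 or more on both bright arrays. The members were chosen by these signals, so nothing is read from their place among the 37. The opposite pattern, at the floor on the FoxO6-/- jaw and WT brain arrays alone, was found for 27 genes (0.148%), and for none of the members.

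Bpifa1, which encodes SPLUNC1, a secreted protein of nasal and upper airway epithelium, was above the floor on all 4 arrays. Its signal was 8364 in FoxO6-/- and 17217 in WT jaw (log2 ratio -1.04). In brain it was 8964 in FoxO6-/- and 1408 in WT (log2 ratio 2.67), 6.37-fold higher in FoxO6-/-. The direction in each tissue was that of Bpifb9b and Bpifb5, but the jaw difference lay just past 2-fold and had a log2 ratio of -0.91 after median centring. The order from high to low was WT jaw, FoxO6-/- brain, FoxO6-/- jaw and WT brain, and FoxO6-/- brain over FoxO6-/- jaw gave a log2 ratio of only 0.10.

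Lcn11, a lipocalin gene, differed from the others in jaw, where the FoxO6-/- signal was the higher one. Its signal was 1283 in FoxO6-/- and 415 in WT jaw, 3.09-fold higher in FoxO6-/-. In brain it was 556 in FoxO6-/- and 2.29 in WT, at least 5.53-fold higher in FoxO6-/-. Lcn11 was therefore above the floor on 3 arrays, and WT brain was the only array on which it was dim. The nearby lipocalin genes Lcn3 and Lcn9 were below the floor on every array, with highest signals of 81.5 and 8.28.

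Bpifb3, known from the olfactory lining of the rat, was dim throughout. Its signal was 71.9 in FoxO6-/- and 114 in WT jaw and 21.6 in FoxO6-/- and 43.9 in WT brain, so only the WT jaw array passed the floor, and it had no fold in brain.

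Only genes whose FoxO6-/- and WT signals averaged the floor or more in a tissue were counted there, which kept 5 of the 6 members in both tissues and left out Bpifb3. In jaw 4 of these 5 were at least 2-fold lower in FoxO6-/-, beside 1.69% of the 12186 genes measured, and Lcn11 was at least 2-fold higher, beside 0.591%. In brain all 5 were at least 2-fold higher in FoxO6-/-, beside 1.13% of 12327 genes, and 0 were 2-fold lower, beside 2.03%. The 4 genes Bpifb9b, Bpifb5, Bpifa1 and 5430401F13Rik passed both limits in opposite directions, beside 0.209% of the 11494 genes measured in both tissues, and 3 did so after median centring. The median log2 ratio of the 5 members was -4.45 in jaw and 7.92 in brain as measured, both against signals below the floor, and -3.41 and 3.36 with low signals raised to the floor. That of all measured genes was -0.01 and 0.05. Since these values chose the members, nothing is read from the counts. In bulk tissue, fewer cells of a type and less RNA per cell cannot be told apart.

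**Figure D2:**
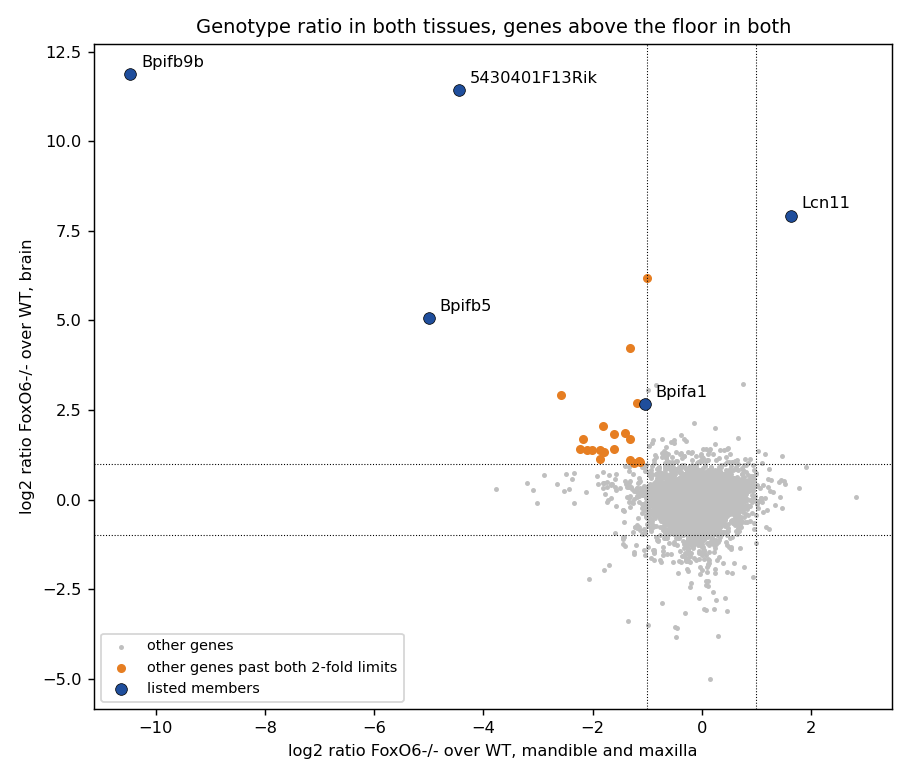
Log2 ratio of FoxO6-/- over WT in jaw (horizontal) and in brain (vertical) of the 11494 genes measured in both tissues, with dotted lines at 2-fold. Bpifb9b, 5430401F13Rik and Bpifb5 lie far to the upper left, Bpifa1 just past the jaw limit, and Lcn11 to the upper right.

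The BPI fold genes of chromosome 2 form a cluster of 13 genes, of which 9 had a probe set. In chromosome order the measured ones are Bpifb2, Bpifb3, Bpifa2, Bpifa3, Bpifa1, Bpifa5, Bpifb1, Bpifb5 and Bpifb9b, with Cdk5rap1, a gene of another family, between Bpifb1 and Bpifb5. Of the cluster, Bpifb5, Bpifb9b and Bpifa1 passed 2-fold in both tissues in opposite directions. Cdk5rap1 had 516 and 594 in FoxO6-/- and WT jaw and 450.2 and 447 in FoxO6-/- and WT brain. Bpifb1, Bpifa3, Bpifa5 and Bpifb2 were below the floor on all arrays, with highest signals of 81.0, 14.3, 37.0 and 9.28, so their ratios could not be read. On the far side of the cluster Cbfa2t2, a transcriptional corepressor gene, had log2 ratios of 0.00 in jaw and 0.37 in brain.

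Bpifa2, which encodes the parotid secretory protein of saliva, is not a listed member but lies between members. It was dim on both jaw arrays and bright on both brain arrays. Its signal was 7.46 and 11.0 in FoxO6-/- and WT jaw, both below the floor. In brain it was 7257 and 11782 in FoxO6-/- and WT (log2 ratio -0.70). Of 9 salivary gland genes outside the family, 2, Pip and Prol1, were likewise below the floor on both jaw arrays and above it on both brain arrays. In 7 both brain signals were above both jaw signals, but some of the 7 had a brain signal below the floor, so their order is not read. Pip, a secreted protein gene of salivary and lacrimal glands, had 34.5 and 14.1 in FoxO6-/- and WT jaw and 1749 and 2271 in FoxO6-/- and WT brain, and Prol1 had 1.37 and 0.526 in FoxO6-/- and WT jaw and 500.3 and 589 in FoxO6-/- and WT brain. Dcpp3 had 1236 and 632 in FoxO6-/- and WT jaw and 11273 and 10555 in FoxO6-/- and WT brain. Smr2 ran the other way, with 450.0 and 632 in FoxO6-/- and WT jaw and 206 and 232 in FoxO6-/- and WT brain.

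**Figure D3:**
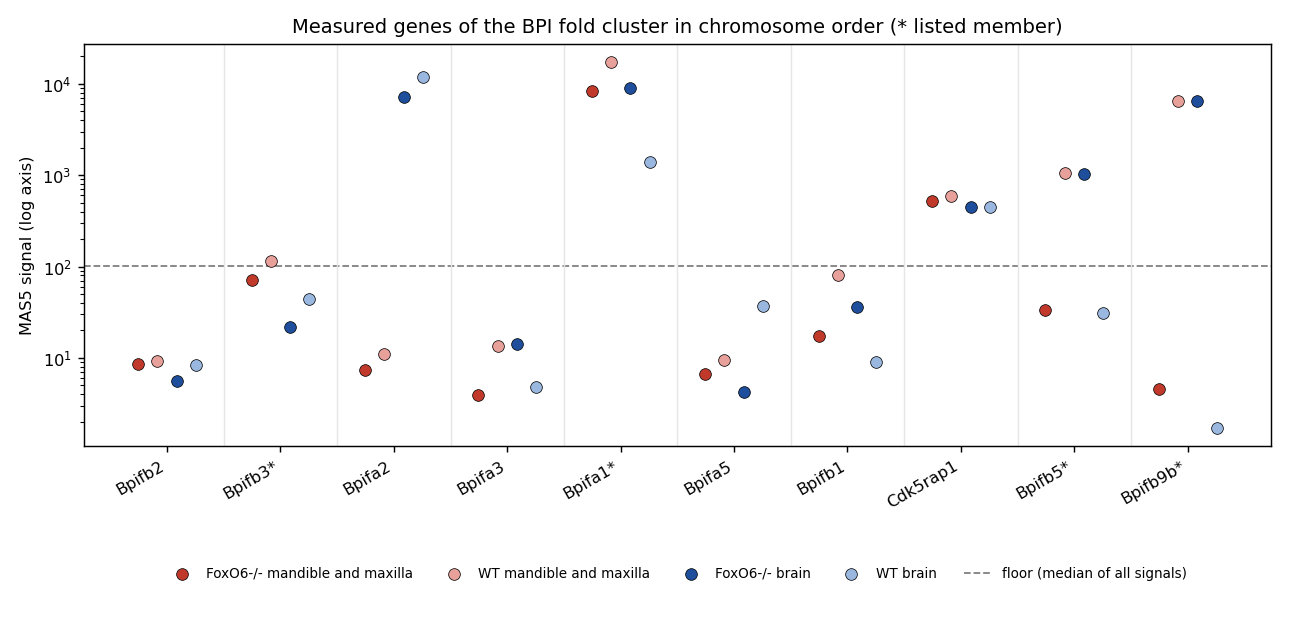
MAS5 signal (log axis) on the 4 arrays of the BPI fold genes with a probe set and of Cdk5rap1, in chromosome order, with the floor of 101 as a dashed line. Bpifb5 and Bpifb9b are split by genotype in opposite ways in the tissues, whereas Bpifa2 is bright on both brain arrays and dim on both jaw arrays.

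At least 2-fold lower in FoxO6-/- jaw and higher in FoxO6-/- brain, as Bpifb9b was, were 0.209% of the 11494 genes measured in both tissues. Few other genes of both families were measured in both, so 0 with this pattern is near that share. It is not read as a result about the families. Of 11 other BPI fold genes 8 had a probe set, and 0 of the 2 measured in both tissues were 2-fold lower in FoxO6-/- jaw and 2-fold higher in FoxO6-/- brain. These are Pltp, the phospholipid transfer protein gene, with log2 ratios of -0.32 and 0.31, and Lbp, the lipopolysaccharide-binding protein gene, with -0.20 and 0.47. Bpifc was measured in jaw only, with 1088 in FoxO6-/- and 834 in WT (log2 ratio 0.38). The median of the 3 genes measured in each tissue was -0.20 in jaw and 0.31 in brain.

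Of 26 other lipocalin genes 18 had a probe set, and 0 of the 4 measured in both tissues passed both limits, beside 0.209% of all genes. Ptgds, the lipocalin-type prostaglandin D synthase of the brain and its membranes, had 483 and 474 in FoxO6-/- and WT jaw and 7438 and 6542 in FoxO6-/- and WT brain. Apod, apolipoprotein D, had log2 ratios of -0.57 in jaw and 0.57 in brain. Rbp4, the plasma retinol carrier, had 0.26 and -0.84. Lcn2, an iron-siderophore carrier of mucosal defence, was at least 2-fold lower in FoxO6-/- jaw, with 179.6 in FoxO6-/- and 437 in WT, and had a log2 ratio of 0.30 in brain. Orm1 was measured in jaw only, with 0.32. The lipocalin medians were 0.03 over 5 genes in jaw and 0.24 over 4 genes in brain. Lcn3 and Obp2a, which are known from nasal and vomeronasal glands, were below the floor on every array.

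Gene lists named for cells of the nasal and airway lining were set beside the members by the sign of their ratios. Which cells gave the signal of these genes on the brain arrays was not tested. Over all measured genes 51.3% were below 0 in jaw and 57.3% above 0 in brain. Those at least 2-fold lower in FoxO6-/- jaw made up 1.69%, and those at least 2-fold higher in FoxO6-/- brain 1.13%. Of 6 olfactory neuron genes measured in jaw 5 were at least 2-fold lower in FoxO6-/-, with a median log2 ratio of -1.69, and of 4 measured in brain 2 were at least 2-fold higher, with a median of 1.56. The summed signal of 9 olfactory neuron genes was 1401 and 2750 in FoxO6-/- and WT jaw and 3226 and 2022 in FoxO6-/- and WT brain. Most of the brain sums came from Gnal, with 1691 and 1260 in FoxO6-/- and WT, and Adcy3, with 637 and 540. Whether olfactory neurons gave that signal was not tested. Omp, the marker protein gene of mature olfactory neurons, had 54.3 and 104.8 in FoxO6-/- and WT jaw and 89.5 and 24.7 in FoxO6-/- and WT brain. Omp passed the floor on the WT jaw array alone and was counted in neither tissue, so its ratios are not read. Of the 6 genes measured in jaw only Adcy3 was higher in FoxO6-/-, with log2 ratios of 0.35 in jaw and 0.24 in brain. Ciliated airway genes were lower in 8 of 9 measured genes in jaw, none by 2-fold, with a median of -0.50. In brain 6 of 8 were higher, 4 past 2-fold, and the median was 1.02. Their summed signal over 10 genes was 6135 and 7820 in FoxO6-/- and WT jaw and 4450.5 and 2972 in FoxO6-/- and WT brain. Of 4 choroid plexus genes measured in jaw 2 were at least 2-fold lower in FoxO6-/-, with a median of -0.64. Of 7 measured in brain 1 was at least 2-fold higher, with a median of 0.06. Ttr of that list had 18837 and 24775 in FoxO6-/- and WT brain.

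Among 11 nasal gland and mucosa genes measured in each tissue, 7 were lower in FoxO6-/- jaw, with a median of -0.34, and 9 were higher in FoxO6-/- brain, with a median of 0.48. Their summed signal over 15 genes was 12594 and 15366 in FoxO6-/- and WT jaw and 7569 and 6855 in FoxO6-/- and WT brain. Cyp2g1, a cytochrome P450 of the olfactory mucosa, had 605 and 1203 in FoxO6-/- and WT jaw and 477 and 56.8 in FoxO6-/- and WT brain. Cbr2, a carbonyl reductase of airway epithelium, had log2 ratios of -0.72 and 1.70. Not all of the list moved this way. Aldh1a7 and Cyp2f2, the next brightest after Cbr2, were not lower in FoxO6-/- jaw. Aldh1a7 had log2 ratios of 0.04 in jaw and -0.87 in brain, and Cyp2f2 had 0.26 and 0.16. Scgb3a1, a secretoglobin gene of airway secretory cells, had 91.7 in FoxO6-/- and 1300 in WT brain, at least 12.9-fold lower in FoxO6-/-. Cartilage genes, of which all 15 were measured in both tissues, were lower in FoxO6-/- jaw and higher in FoxO6-/- brain without exception, with medians of -0.86 and 0.71. Nerve and brain genes had the same signs in 11 of 11 genes in jaw and 12 of 12 in brain, with medians of -0.72 and 0.35. Oral epithelium genes differed in jaw, where 0 of 11 were lower in FoxO6-/-, with a median of 0.42 and summed signals of 83926 in FoxO6-/- and 58667 in WT, and in brain 9 of 9 were higher, with a median of 0.62. The 3 vomeronasal genes listed gave 2 with a probe set, Gng8 with log2 ratios of -0.57 and 1.0 and Trpc2 with -0.19 in jaw. The part of these cell types, and of the tissue taken in each dissection, in the differences of the members was not tested.

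**Figure D4:**
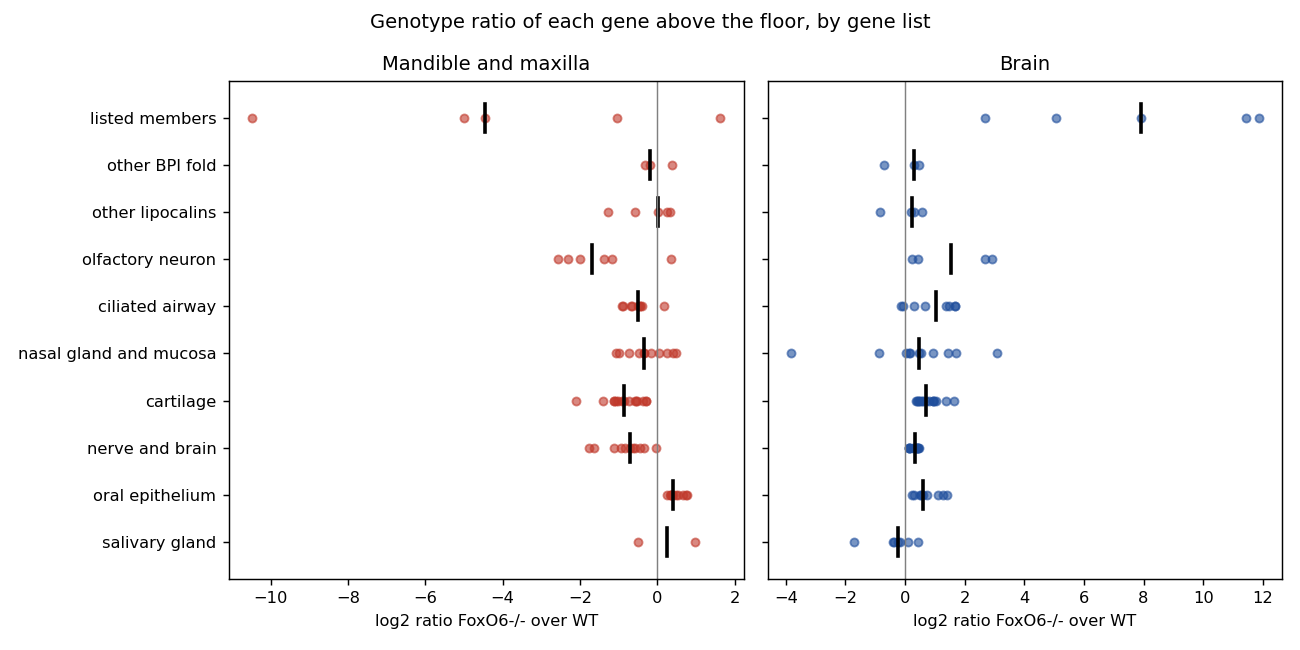
Log2 ratio of FoxO6-/- over WT in jaw (left) and brain (right), with 1 point per gene above the floor in that tissue and a bar at the median of each gene list. The listed members, chosen for these values, span -10.47 to 1.63 on the left and 2.67 to 11.88 on the right, while the olfactory neuron medians are -1.69 and 1.56 and the cartilage medians -0.86 and 0.71.

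The genes most like the members were found with a crossed score, the smaller of the log2 ratio WT over FoxO6-/- in jaw and FoxO6-/- over WT in brain, with low signals raised to the floor, over 4 arrays. Bpifb9b ranked first of 18193 genes with 6.0, 5430401F13Rik next with 4.09 and Bpifb5 next with 3.36, whereas Bpifa1 was at rank 18 with 1.04 and Lcn11 at rank 18116. The members were chosen by the same signals, so their ranks are a description and carry no weight. The highest score outside the list was 1.97 for Gng13, a G protein subunit gene of olfactory and taste cells, with 114.2 and 681 in FoxO6-/- and WT jaw and 395 and 52.3 in FoxO6-/- and WT brain. It was followed by the glutathione transferase gene Gstm1 with 1.70, the fatty acid transporter gene Slc27a2 with 1.41, the cartilage matrix gene Matn1 with 1.37, Fam107a with 1.37 and the zinc finger gene Sp8 with 1.33. The methyltransferase gene Inmt had 1.31, the tight junction gene Cldn9 1.28, Deup1, a gene of multiciliated cells, 1.27 and Dcdc2a 1.15.

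In all, 24 genes passed 2-fold in both tissues with FoxO6-/- lower in jaw and higher in brain, 4 of them members, and 0 passed it the other way round. In 13 of the 24 the FoxO6-/- brain and WT jaw signals were within 1.5-fold of each other, 54.2%, against 70.3% of all genes measured in both tissues. Only 6 of the 24 were below the floor on both other arrays, Bpifb9b, Bpifb5 and 5430401F13Rik among them. The floor matters for this comparison, since with every signal used 312 genes passed one way and 261 the other.

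**Figure D5:**
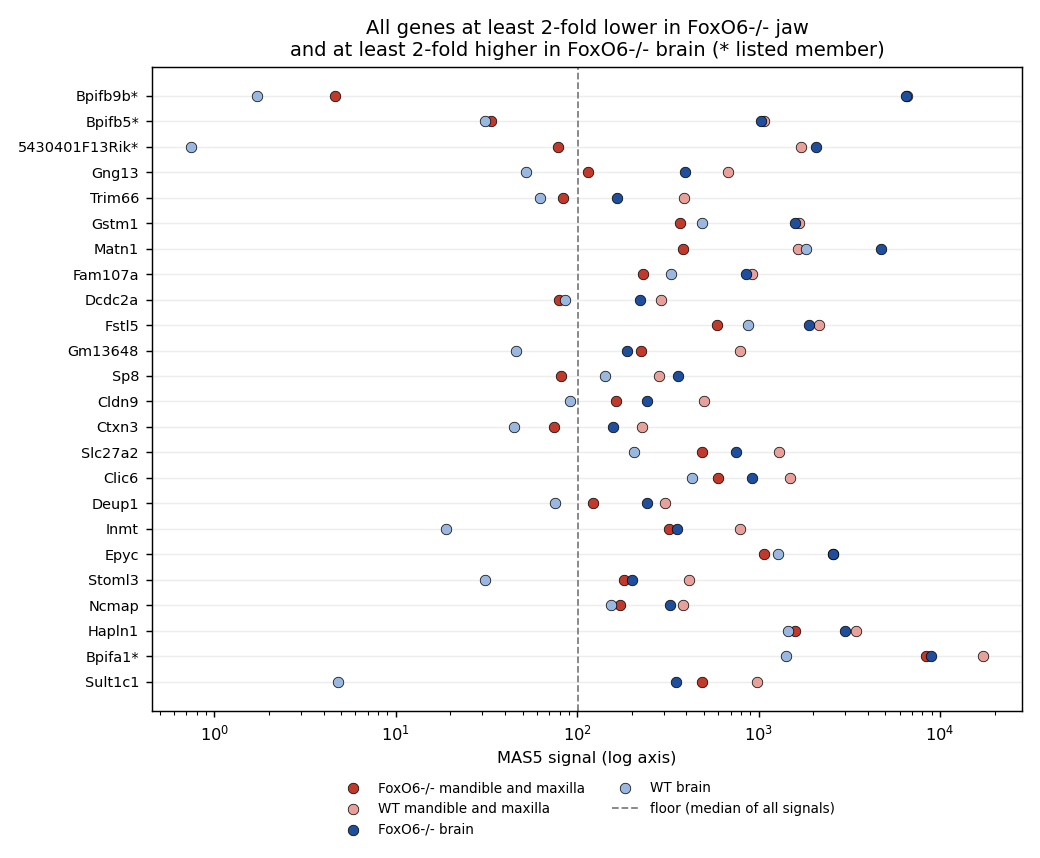
MAS5 signal (log axis) on the 4 arrays of the 24 genes at least 2-fold lower in FoxO6-/- jaw and at least 2-fold higher in FoxO6-/- brain, sorted by the jaw ratio, with listed members starred and the floor as a dashed line. Bpifb9b, Bpifb5 and 5430401F13Rik have the widest gaps between bright and dim arrays in jaw.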

How the data were processed

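Gene expression was measured on Affymetrix Mouse Genome arrays with 45101 probe sets, 1 array per tissue and genotype. The deposited intensity values are linear MAS5 signals made and scaled by the authors (software version not given in the sources used here). No further normalization was applied. Names came from the platform's annotation, which gives 34958 probe sets with 1 gene, 932 with several and 9160 without a name that are not controls, and Entrez IDs tied 34754 probe sets to RefSeq genes (GRCm38.p6).

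Of a gene's probe sets the one brightest on average stood for it, and log2 ratios are FoxO6-/- over WT within a tissue. Members, gene lists and tests were chosen with earlier results of these data known. Named genes were all members, the other BPI fold genes, up to 4 of the brightest genes of each further list, chromosome neighbours and the 10 genes with the highest crossed score. Omp, Cyp2g1, Scgb3a1, Orm1 and Obp2a lie beyond that rule and were chosen after their values were seen. The methods name limma, but with 1 array per group no test was run within a tissue. The alternatives tried were median centring, quantile normalization, low values set to the floor, a higher floor of 524 (the upper quartile of all signals), no floor, the mean of all probe sets and gene-specific probe sets. The software was matplotlib 3.10.9, scipy 1.17.1, pandas 2.3.3, numpy 2.4.6, Python 3.11.15 and Biopython 1.88, the last for upstream alignments.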

Additional observations from a re-analysis of the deposited data

Results flagged for a closer look

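The genotype difference ran in opposite directions in jaw and in brain for 4 members and for the 10 genes most like them. The difference between the tissues was not tested, since each group has 1 array. As the log2 ratio of FoxO6-/- over WT in jaw minus that in brain, it was -22.34 for Bpifb9b (-16.51 at its other probe set), -15.88 for 5430401F13Rik, -10.06 for Bpifb5 and -3.71 for Bpifa1. All but that of Bpifa1 rest on signals below the floor and are not sizes to be read. With low signals raised to the floor they were -12.03 for Bpifb9b (-9.27 at its other probe set), -8.44 for 5430401F13Rik and -6.76 for Bpifb5. Outside the list the measured difference was -5.53 for Inmt and -5.49 for Gng13, which became -3.12 and -4.55 with low signals raised to the floor. It was -3.86 for Gstm1, -3.48 for Matn1, -3.38 for Fam107a, -3.27 for Slc27a2, -3.26 for Dcdc2a, -3.12 for Sp8, -3.03 for Cldn9 and -3.0 for Deup1, of which Dcdc2a, Sp8, Cldn9 and Deup1 also had a signal below the floor and became -2.67, -2.81, -2.89 and -2.59. The members and these genes were picked for this pattern.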

How the results depend on the processing

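The counts of members past 2-fold kept within 1.5 times of their values under all 7 alternatives. In jaw they were 4, and 3 after median centring, where Bpifa1 had -0.91. In brain they were 5, and 4 with the higher floor, where Lcn11 was left out. Both limits were passed by 4 members, and by 3 after median centring. With no floor 2 other BPI fold genes, Bpifa3 and Bpifb1, and 1 other lipocalin gene, Lcn8, passed both limits, in place of 0, and all of them were below the floor on every array. Raising low values to the floor moved Bpifb9b to -6.02 in jaw and 6.0 in brain, 5430401F13Rik to 4.36 in brain, Bpifb5 to -3.41 in jaw and 3.36 in brain, and Lcn11 to 2.47 in brain. Of 84 recomputed member ratios 74 moved by less than 0.42, the SD of the difference between probe sets of a gene, 10 by more, and 0 reversed. Many of the 74 could not move. Removing or raising the floor changes which genes are counted but no ratio, and all member probe sets are gene-specific. Averaging probe sets could change Bpifb9b alone. The count of 74 is therefore no measure of stability. Genes past both limits numbered from 11 to 25 with a floor and 312 without. No paired analysis was possible because each group has 1 array, and leaving out an array was not possible for the same reason.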
